A study of Danio rerio with 12 samples.

Results

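The change of *ercc2/xpd* mutant larvae from 5 to 7 days post fertilization (dpf) was followed in 6 of the 12 RNA-seq libraries of the study, 3 of mutants at 5 dpf and 3 of mutants at 7 dpf. Genes were kept when they reached 0.5 FPKM (fragment counts scaled to transcript length and to library size) in at least 3 of these 6 libraries, which left 21824 of the 37541 gene identifiers in the files. The mutants were homozygous (ercc2/xpd -/-) for a short frameshifting deletion made with CRISPR/Cas9, in the AB strain. The other 6 libraries came from siblings, labelled ercc2/xpd+/+ & ercc2/xpd+/-, at the same ages and in the same strain, so a sibling value mixes wild type and heterozygous larvae. RNA came from pooled whole larvae, 30 per library, with no agent named in the labels. The methods of the study describe keeping embryos in phenylthiourea (PTU) against pigmentation. They do not say whether this held for the sequenced larvae, and its part in the changes was not tested. In such pools fewer cells of a type and less RNA per cell cannot be told apart, and the p-values measure the spread between pools.

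Ercc2/Xpd is a helicase of TFIIH, the complex that opens promoters for RNA polymerase II and unwinds damaged DNA for nucleotide excision repair. Between these ages a zebrafish larva uses up the last of its yolk, which the yolk syncytial layer packs into lipoproteins, while cell division slows and organs such as the gut, liver and pancreas take over nutrition. A larva that does not feed after that turns to its own stores, and the muscle genes of protein breakdown are a known readout of fasting.

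The targeted gene, listed as *ERCC2* (ENSDARG00000021985, chromosome 15, 23680018 to 23692359 in GRCz11), was at 3.14, 2.97 and 2.56 FPKM in the mutants at 5 dpf and at 3.57, 2.96 and 3.07 at 7 dpf. All 6 values lay below the lowest sibling library (3.78), and the ages overlapped within the mutants (log2 fold change 0.12 ± 0.17, adjusted p = 0.69 by limma). Of the TFIIH subunits, 6 were tested and 0 passed in either direction between the ages (median −0.19). Reads could be recovered from the FPKM values and gave a depth of 14286388 to 15084280 per mutant library. Markers of muscle, cartilage and liver and the skin marker *krt4* were present in every mutant library. The skin marker *krt5* lay between 0.238 and 2.14 FPKM and the enterocyte gene *FABP2* between 0.0548 and 1.27 FPKM. Lens markers were low as well, with *cryaa* between 0.266 and 3.9 FPKM. On the first 2 principal components of the mutant libraries, 45.7% of the variance separated the ages and 21.2% set 7 dpf replicate 1 (−42.3) apart from 7 dpf replicate 3 (45.7). These 2 libraries also had the lowest weights of the mutants (0.652 and 0.52, against 0.89 to 2.152). Counts of several lists are also given without 1 of them, while most single genes are given with all libraries only.

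From 5 to 7 dpf, 1294 genes rose (5.93% of those tested) and 1475 fell (6.76%) in the mutants at an adjusted p under 0.05 (limma with Benjamini-Hochberg adjustment over all 21824 genes). The mutant counts of every gene list below are to be read beside these shares. The median change of the called genes was 0.87 on the log2 scale for those that rose and −0.87 for those that fell, and 461 and 521 of them moved by at least 1 unit, a factor of 2. All fold changes are on the log2(FPKM + 0.5) scale, which understates the change of low genes. The 7 dpf libraries lay all above the 5 dpf libraries for 3380 genes (15.5%) and all below for 3736 (17.1%). The balance of the calls depended on the scaling: 46.7% of the called genes rose with the deposited values, 40.5% with TPM and 35.0% with libraries scaled to their total of reads, which moved the median of all genes by less than 0.1. Without any one mutant library 1452 to 2214 genes were called, against 2769 with all. The rises numbered 760 and the falls 711 without 5 dpf replicate 1, the rises 670 and the falls 782 without 5 dpf replicate 2, and the falls 959 without 7 dpf replicate 1. Of the 2769 genes, 1149 were called without each of the 6 libraries in turn.

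Most of what moved in the mutants moved the same way in the siblings. The 6 sibling libraries gave 2850 genes that rose (13.1%) and 3018 that fell (13.8%). None of them enters the mutant fold change, but both comparisons use the same estimate of the spread, so their calls are not independent. Of the 2769 mutant calls, 2157 were also called in the same direction in siblings, which is 77.9% of the mutant calls and 36.8% of the sibling calls. The sign of the change was shared by 95.8% of the mutant calls, called in siblings or not. Only 11 genes (0.397%) were called in opposite directions. Across the tested genes the fold changes of mutants and siblings had a Pearson r of 0.67, a description over genes, which are not independent replicates. Deviations from the group means correlated between the genotypes, replicate by replicate, at 0.291, 0.132 and 0.229 at 5 dpf and at 0.064, 0.088 and −0.022 at 7 dpf, so the genotypes are not fully separate sets at 5 dpf, and the part of this in the overlap was not tested.

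The size of the change was smaller in the mutants for many genes. Among the 2157 shared calls, 1569 (72.7%) changed more in the siblings. The genes called in siblings had a median change of 0.49 and −0.53 in the mutants, while the genes called in mutants had a median change of 0.92 and −0.95 in the siblings. The difference of the age change between mutants and siblings was called for 0 genes in either direction (0.0% higher and 0.0% lower) by limma, with a lowest adjusted p of 0.0633, and also for 0 genes by voom on recovered reads. At an unadjusted p under 0.05, 2270 genes (10.4%) differed. Differences between mutants and siblings below are therefore given as values side by side, none of which passed the test over all genes.

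**Figure D1:**
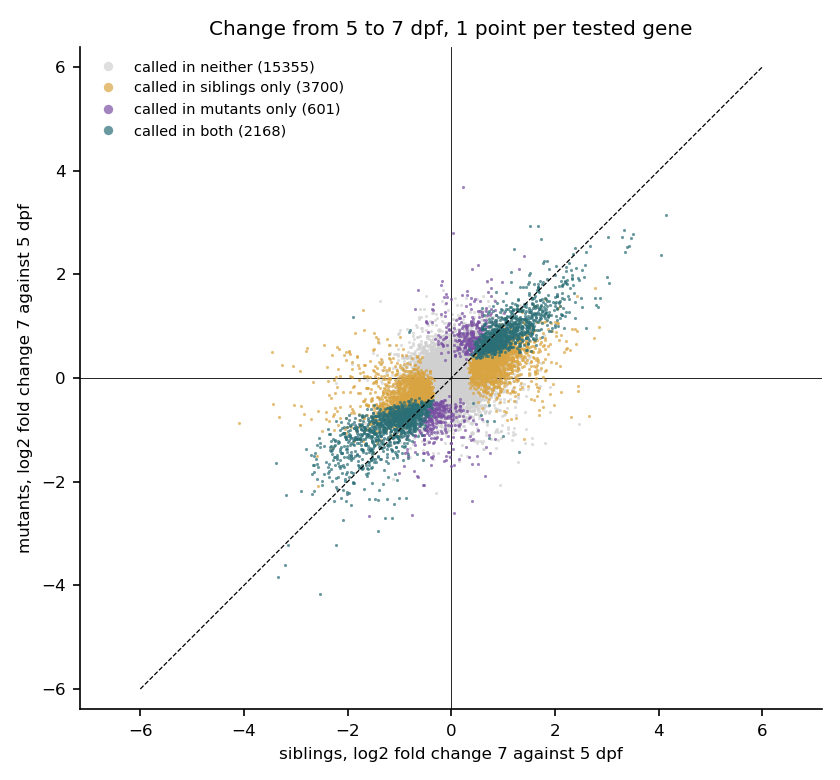
Log2 fold change from 5 to 7 dpf of each tested gene in the siblings (x axis) and in the mutants (y axis), with the dashed line marking equal change. Colours mark genes called in both (2168), in mutants only (601), in siblings only (3700) or in neither (15355). The genes called in both lie at the lower left and upper right, apart from 11 of opposite direction. Of the 2157 called in the same direction, 72.7% changed more in the siblings than in the mutants.

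The largest falls were those of the lipoprotein genes. Apolipoproteins carry lipid out of the yolk, liver and gut, and 8 of the 12 genes with the largest decrease were among them. *apoea* (ENSDARG00000102004, chromosome 19, 10855158 to 10859694), a ligand of lipoprotein receptors, was at 278, 224 and 132 FPKM at 5 dpf and at 15.2, 15.7 and 5.04 FPKM at 7 dpf. Its lowest 5 dpf library was far above the highest 7 dpf library, and the change was −4.18 ± 0.41 on the log2 scale (adjusted p = 0.0002). *apoa1a* (chromosome 5, 37978501 to 37981521), a main protein of high-density lipoprotein, was at 905, 739 and 571 FPKM at 5 dpf and at 61.7, 52.6 and 38.4 FPKM at 7 dpf. It fell by 3.85 ± 0.34 (adjusted p = 0.00014), and again the ages did not overlap.

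Of the 21 apolipoprotein and lipoprotein genes tested, 13 fell and 1 rose, with a median of −2.15, while 6.76% of all tested genes fell and the median of all genes was −0.008. The median relative to the 5 dpf mean was −1.58, −1.9 and −2.63 in the 3 libraries of 7 dpf, so all shared the fall. In siblings 13 fell as well and 2 rose, with a median of −1.09. *apoc2*, the activator of lipoprotein lipase, fell by 3.23 on the log2 scale in mutants and by 2.22 in siblings. *apoa4b.1* and *apoa4b.2* fell by 2.70 and 2.44 in mutants and by 1.27 and 1.93 in siblings, and *apom* fell by 2.42 and 1.09. Among the genes of this group that fell in mutants, *apoa1b* did not pass in siblings. It was at 477, 429 and 325 FPKM in the mutants at 5 dpf and at 110, 81.2 and 32.1 at 7 dpf, a change of −2.61 ± 0.35 (adjusted p = 0.00092). In siblings it was at 583, 462 and 438 FPKM at 5 dpf and at 483, 553 and 494 at 7 dpf, which overlap (0.05, adjusted p = 0.93). The difference between these changes had an adjusted p of 0.18.

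Several of these genes lie close together on chromosome 16, between the start of *apoa4b.1* at 23913943 and the end of *apoc2* at 23994642. *apoa2* lies in this stretch (23978978 to 23980354) and was one of the highest genes of the group, at 2272, 1981 and 1300 FPKM at 5 dpf and 311, 356 and 195 FPKM at 7 dpf. It fell by 2.69 ± 0.33 (adjusted p = 0.00058). A pair of further genes of the stretch, looked up after their values were seen, did not behave alike. *apoc1* (23972126 to 23973721) fell by 2.31 (adjusted p = 0.00021), while *apoeb* (23960744 to 23963461) changed by 0.12 (adjusted p = 0.77).

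Of 10 genes of yolk processing 7 fell and 0 rose, with a median of −2.24 (−1.37 in siblings). Of the 10, 5 are apolipoproteins already counted above, and 1 of the 7 was kept through 5 dpf alone and had to differ. That gene is also listed as *afp4* but is not the one given next. *afp4* (ENSDARG00000095863) lay between 38.3 and 76.1 FPKM at 5 dpf and between 8.54 and 12 FPKM at 7 dpf, a fall of 2.34. Genes of lipid storage and sterol handling stood beside them among the 12 largest decreases. *NPC2* (ENSDARG00000096979), a lysosomal cholesterol carrier, was at 33.6, 30 and 21 FPKM and then at 1.72, 4.11 and 4.12 FPKM, a change of −2.96 ± 0.38 (adjusted p = 0.00073). *DGAT2*, which makes triglyceride, and *NR0B2*, a nuclear receptor that restrains bile acid synthesis in mammals, each fell by 2.34. One lipoprotein gene went the other way. *LPL* (ENSDARG00000087697), the lipase that frees fatty acids from circulating lipoproteins, rose from 54.5, 41.9 and 46.5 FPKM to 183, 130 and 194 FPKM (1.81 ± 0.18, adjusted p = 0.0002), and it rose by 2.23 in siblings. The other gene listed as *LPL* (ENSDARG00000098720), looked up after the results were seen, changed by 0.49 and did not pass (adjusted p = 0.165).

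**Figure D2:**
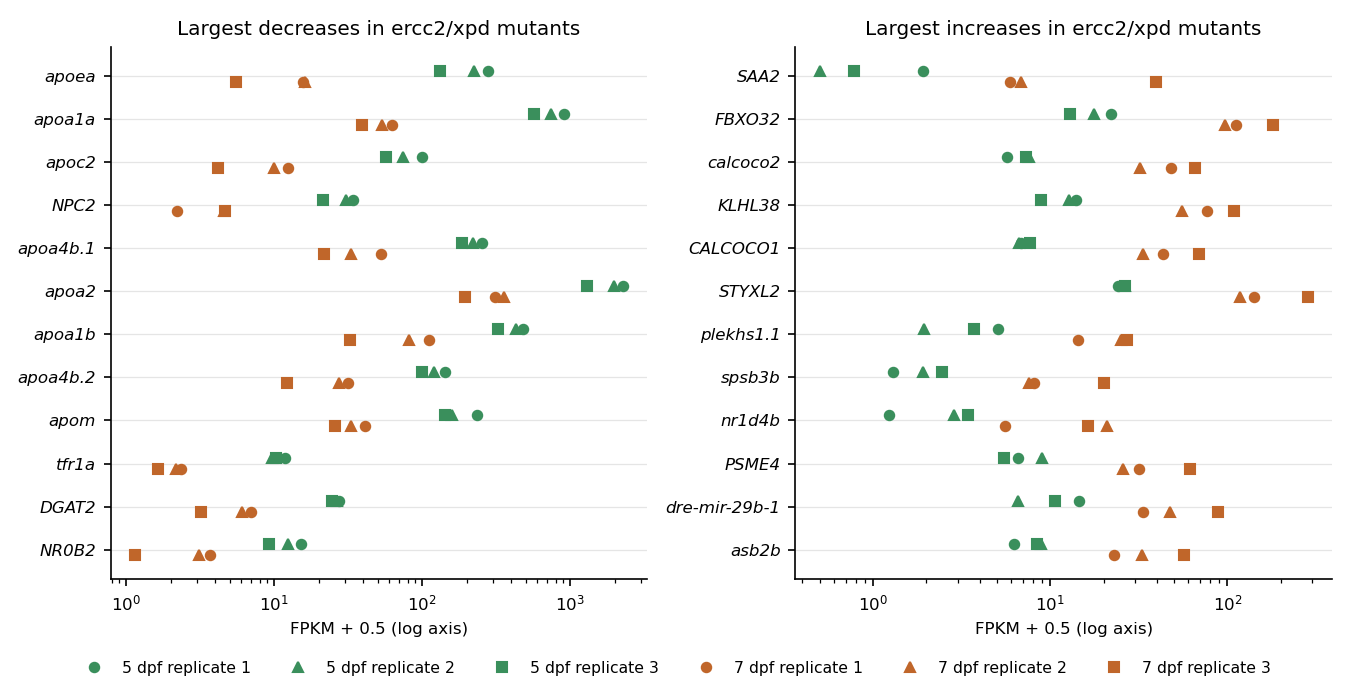
FPKM + 0.5 on a log axis in each mutant library for the 12 genes with the largest decrease (left) and the 12 with the largest increase (right), with green points for 5 dpf and orange points for 7 dpf and a marker shape per replicate. The 2 ages do not overlap for any of these genes, since that was a condition of the choice, and *apoea* and *apoa1a* show the widest gaps on the left and *SAA2* the widest spread among 7 dpf libraries on the right.

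Genes of DNA replication and mitosis fell almost as a whole. Of 67 tested, 59 fell and 0 rose, with a median of −1.2 (5 of the 59 were kept through 5 dpf alone and had to differ), and the medians of the 7 dpf libraries were −1.23, −1.09 and −1.38 relative to 5 dpf. *TYMS*, which makes thymidylate for DNA synthesis, was at 14.4, 11 and 12.5 FPKM at 5 dpf and at 2.2, 2.19 and 2.3 FPKM at 7 dpf. The 7 dpf libraries were nearly equal and far below 5 dpf (−2.26 ± 0.19, adjusted p = 0.00014). *MCM5*, a subunit of the replicative helicase, fell by 2.17, *GINS2* of the same helicase by 2.02 and *CDK2*, the kinase of S phase entry, by 1.99. In siblings 64 of the 67 fell with a median of −1.95, and *TYMS* fell by 3.2 there. At an unadjusted p under 0.05, 35 of the 67 differed in their age change between mutants and siblings, against 10.4% of all tested genes, and none passed after adjustment. Without any one mutant library 50 to 57 of the genes fell.

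The largest rises included genes of muscle protein breakdown and fasting. *FBXO32* (atrogin-1; chromosome 16, 25259313 to 25272633), a ubiquitin ligase that marks muscle proteins for degradation, was at 21.6, 17.2 and 12.5 FPKM at 5 dpf and at 112, 96.3 and 180 FPKM at 7 dpf. The ages lay well apart, and the rise was 2.87 ± 0.34 on the log2 scale (adjusted p = 0.0005). In siblings it rose by 3.33. *KLHL38*, which lies next to it (25245857 to 25250414), was at 13.5, 12.2 and 8.43 FPKM and then at 76.5, 54.6 and 108 FPKM, a rise of 2.73 ± 0.27. *STYXL2*, a muscle protein, rose by 2.71, *asb2b*, of a family of ubiquitin ligase adaptors, by 2.18 and *calcoco2* and *CALCOCO1*, which are autophagy receptors in mammals, by 2.78 and 2.72. The largest increases also held the microRNA gene *dre-mir-29b-1*, which had only 8 to 99 reads per mutant library and rose by 2.37 (4.04 in siblings), *plekhs1.1* (2.69) and *spsb3b* (2.56).

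Among 26 genes of the fasting and muscle atrophy response 11 rose and 2 fell, with a median of 0.49 (13 and 2 in siblings, median 0.53). The rises numbered 7 without 5 dpf replicate 2 and between 8 and 13 without any other library. *igfbp1b*, a binding protein that restrains insulin-like growth factor and rises in fasting, went from 9.57, 11.4 and 12 FPKM to 51.2, 34.8 and 67.1 FPKM. All 7 dpf libraries were above all 5 dpf libraries (2.12 ± 0.28, adjusted p = 0.0009). The muscle ubiquitin ligase *trim63a* was at 0.17, 0.414 and 0.393 FPKM and then at 1.93, 1.52 and 2.13 FPKM, and it was kept through 7 dpf alone, so that it had to differ. *ucp3*, a mitochondrial carrier of muscle induced by fasting in mammals, rose by 1.78. Of the 2 that fell, *cpt1ab*, which brings fatty acids into mitochondria, fell by 0.79. *PCK1*, of glucose synthesis, fell by 1.15 (adjusted p = 0.022), a call lost without 5 dpf replicate 1, 5 dpf replicate 2, 7 dpf replicate 2 or 7 dpf replicate 3 (adjusted p from 0.059 to 0.085).

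Some autophagy and proteasome genes also passed upward. Of 30 autophagy and lysosome genes 9 rose and 1, *NPC2*, fell, with a median of 0.28 (10 and 3 in siblings, median 0.24). The 7 dpf libraries had like medians (0.27, 0.24 and 0.31), and the rises numbered 5 without 5 dpf replicate 1, 5 without 5 dpf replicate 2, 5 without 7 dpf replicate 3 and 6 without 5 dpf replicate 3. *LAMP1*, a lysosomal membrane protein, was at 14.7, 15.4 and 14.3 FPKM and then at 28.5, 37.4 and 58.2 FPKM (1.39 ± 0.20, adjusted p = 0.0015). *MAP1LC3A*, which coats autophagosomes, rose by 1.01 and *ATG7*, which activates it, by 0.95.

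Of 41 proteasome genes 10 rose and 0 fell (median 0.38; 15 and 0 in siblings). The libraries overlapped on this list, with medians of 0.26, −0.03 and −0.23 at 5 dpf and 0.28, −0.02 and 0.84 at 7 dpf, and the rises numbered 2 without 5 dpf replicate 2, 3 without 5 dpf replicate 3 and 5 without 7 dpf replicate 3. *PSME4* (ENSDARG00000087911), a proteasome activator, stood out at 6.1, 8.48 and 5 FPKM at 5 dpf and 31.2, 25.1 and 61.4 FPKM at 7 dpf. It rose by 2.42 ± 0.30 (adjusted p = 0.0006), and by 3.35 in siblings.

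Some ribosome biogenesis genes passed the test upward. Of 71 genes of rRNA transcription, processing and assembly 21 rose and 1 fell, with 49 above and 22 below 0 and a median of 0.28 (29 and 2 in siblings, median 0.52), and 14 to 21 rose without any one library, with 14 without 5 dpf replicate 2. *DDX21*, a nucleolar helicase of rRNA synthesis and processing, was at 159, 153 and 194 FPKM at 5 dpf and at 349, 375 and 614 FPKM at 7 dpf. The ages did not overlap (1.36 ± 0.26, adjusted p = 0.0064). *SDAD1*, which helps to build the large subunit in yeast, rose by 1.58 and *rrp1* by 1.32. Of 75 genes of cytosolic ribosomal proteins 0 passed, although 71 had a change above 0 (median 0.22). Their 7 dpf medians were −0.14, 0.16 and 0.58, with replicate 3 the highest, and these genes took 8.93%, 10.69% and 12.23% of the reads of the 7 dpf libraries.

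Clock genes moved in both genotypes. Of 37 genes of the circadian clock and its outputs 11 rose and 3 fell in mutants (median 0.40), and 16 rose and 3 fell in siblings (median 0.63). Of the 11, 1 was kept through 7 dpf alone. *PER1* (ENSDARG00000056885), a repressor of the clock, was at 4.21, 5.84 and 5.85 FPKM at 5 dpf and at 16.9, 13.1 and 12.2 FPKM at 7 dpf, apart in every library (1.33 ± 0.20, adjusted p = 0.0017). The clock output factor *dbpb* rose by 1.62, while *HLF*, of the same family, fell by 1.19 and the cryptochrome *cry4* by 1.06. *BMAL1* (ENSDARG00000006791) fell by 1.37 (adjusted p = 0.036 by limma). Its call was lost without 5 dpf replicate 1, 5 dpf replicate 3 or 7 dpf replicate 1. The rises numbered 6 without 5 dpf replicate 1, 5 dpf replicate 2 or 7 dpf replicate 2. No source used here gives the hour of collection, and its part in this and the other age changes was not tested.

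**Figure D3:**
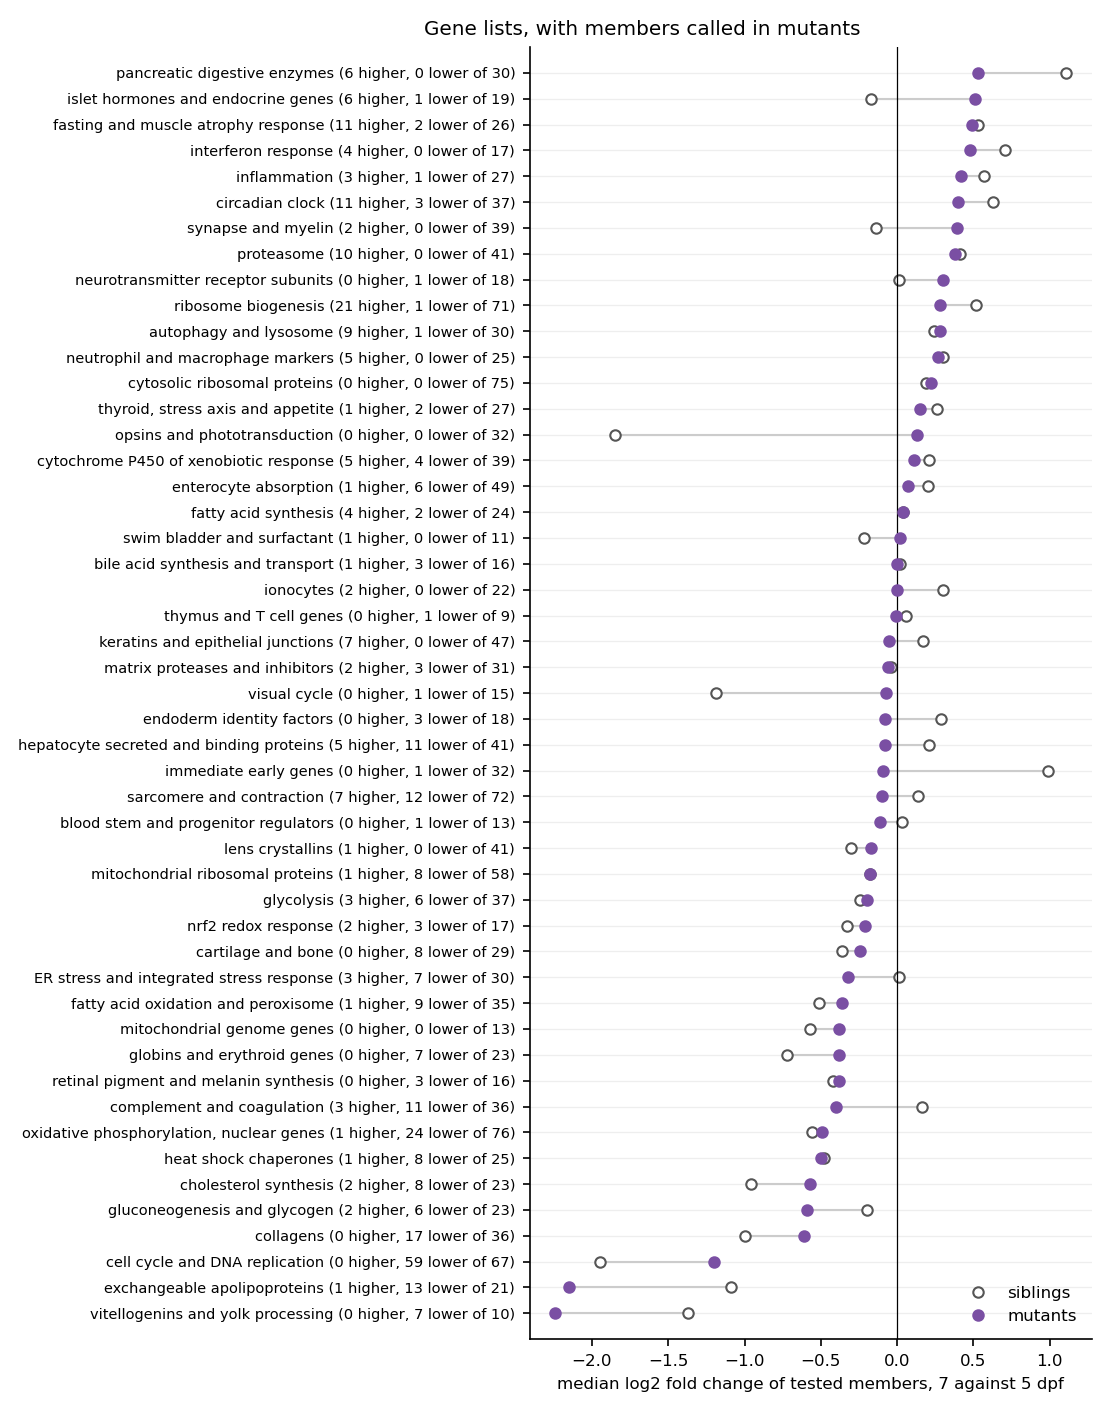
Median log2 fold change from 5 to 7 dpf of the tested members of each gene list shown, all with at least 9 members, with filled points for mutants and open points for siblings, and with the number of members called in mutants beside each name. Yolk and apolipoprotein genes and cell cycle genes lie farthest to the left, and the open point lies well to the left of the filled one for opsins (−1.85 against 0.13) and well to the right for immediate early genes (0.99 against −0.09).

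Genes of energy metabolism fell in part. Of 76 nuclear genes of oxidative phosphorylation 24 fell and 1 rose, with a median of −0.49 (38 and 0 in siblings, median −0.56), and 42 fell with libraries scaled to total reads and 34 with TPM. The falls numbered 6 without 5 dpf replicate 1, 10 without 5 dpf replicate 2 and 12 without 7 dpf replicate 1, and 32 without 7 dpf replicate 3, the library with the smallest fall (median −0.2, against −0.73 and −0.47). *atp5mc1*, a subunit of the ATP synthase rotor, went from 412, 348 and 308 FPKM to 132, 150 and 145 FPKM (−1.31 ± 0.22, adjusted p = 0.0031), with no overlap. Of the 13 protein genes of the mitochondrial genome 0 passed (median −0.38), and 2 fell with total reads and 1 with TPM. Of 35 genes of fatty acid oxidation 9 fell and 1 rose (median −0.36), and *HADHA*, the trifunctional enzyme, fell by 0.86. The falls of that list numbered 6 without 5 dpf replicate 1 and 6 without 7 dpf replicate 1. The 1 that rose was *pparaa*, a nuclear receptor that turns on fatty acid oxidation in mammals (0.76).

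Sugar and sterol genes were mixed. *LDHA*, which reduces pyruvate to lactate, was at 166, 126 and 101 FPKM at 5 dpf and at 38.7, 31.7 and 24.5 FPKM at 7 dpf. The libraries of the 2 ages lay far apart (−2.03 ± 0.24, adjusted p = 0.0005), and *ldhbb* rose by 1.00. Of 37 glycolysis genes 6 fell and 3 rose (median −0.2), with 3 falls and 1 rise without 5 dpf replicate 1, 5 dpf replicate 2 or 7 dpf replicate 1, 3 falls without 7 dpf replicate 2 and 1 rise without 5 dpf replicate 3. Of 23 genes of gluconeogenesis and glycogen 6 fell and 2 rose (median −0.59; 1 rise with TPM), with 1 fall without 5 dpf replicate 1, 1 without 5 dpf replicate 2 and 4 without 7 dpf replicate 3. *FBP2*, of the same list, fell by 1.63 (adjusted p = 0.014 by limma), a call lost without 5 dpf replicate 1 or 5 dpf replicate 2. *fbp1a*, an enzyme of glucose synthesis, rose by 0.96, while 19 of the 23 genes had a change below 0. Of 23 cholesterol genes 8 fell and 2 rose (median −0.57; 18 and 2 in siblings, median −0.96), with 4 falls without 5 dpf replicate 2, 5 without 5 dpf replicate 1 and 5 without 7 dpf replicate 3. *ACAT2* and *NSDHL*, enzymes of the sterol pathway, fell by 1.02 and 1.13, while *SREBF1*, a regulator of lipid synthesis, and *ldlra*, the receptor of low-density lipoprotein, rose by 0.99 and 0.83. *LPIN1*, a phosphatidate phosphatase of fat synthesis and a coactivator in mammals, rose from 23.9, 15.9 and 18.6 FPKM to 80.7, 61.5 and 63.4 FPKM (1.80).

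Liver genes did not move as a block in the mutants. Of 41 genes of proteins that hepatocytes secrete or bind 11 fell and 5 rose (median −0.08), and 6 fell and 11 rose in siblings (median 0.21). The 11 include *apoa2* and *apom*, given above with the lipoprotein genes, and *fetub*, given below. The falls in mutants numbered 5 without 5 dpf replicate 2, 6 without 5 dpf replicate 1 and 7 without 7 dpf replicate 3, and the rises 2 or 3 without 5 dpf replicate 1, 5 dpf replicate 2, 7 dpf replicate 1 or 7 dpf replicate 2. The liver marker *fabp10a* was at 32.6, 110 and 81.9 FPKM at 5 dpf and at 85.7, 69.6 and 73.8 FPKM at 7 dpf, overlapping (adjusted p = 0.76). *hpda*, which breaks down tyrosine, rose by 0.97 in mutants and by 2.60 in siblings.

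Complement and clotting genes that passed the test mostly fell in the mutants and mostly rose in the siblings. Of 36 tested, 11 fell and 3 rose in mutants (median −0.4), while 10 rose and 1 fell in siblings (median 0.16). Over all tested genes 6.76% fell and 5.93% rose in mutants, and 13.8% fell and 13.1% rose in siblings. The falls numbered 9 or 10 without any one mutant library, and 1 of the 11 was kept through 5 dpf alone. At an unadjusted p under 0.05, 14 of the 36 differed in age change between the genotypes, against 10.4% of all tested genes. None of them passed after adjustment. *fga*, the alpha chain of fibrinogen, was at 68.5, 56.7 and 35.5 FPKM in the mutants at 5 dpf and at 15.4, 20.3 and 12.7 FPKM at 7 dpf, below 5 dpf in every library (−1.67 ± 0.28, adjusted p = 0.0032). *FGB*, the beta chain, fell by 1.55, and *MASP2*, a protease of the lectin pathway of complement, fell from 2.44 ± 0.36 to 0.614 ± 0.555 FPKM (mean ± SD, n = 3 libraries, adjusted p = 0.0069 by limma). In siblings these 3 genes changed by −0.39, −0.37 and −0.34, with adjusted p from 0.3 to 0.43. Apart from complement and clotting genes, *slc27a2a*, of a family of fatty acid transport proteins, fell by 1.61 in mutants and changed by −0.15 in siblings (adjusted p = 0.69).

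The 11 genes of opposite direction include plasma proteins of the liver, of which *c9* and *fetub* are given here. *c9* (chromosome 5, 32345187 to 32355289), the pore protein of complement, was at 21.1, 24.3 and 16.6 FPKM in mutants at 5 dpf and at 9.08 ± 2.02 FPKM (SD over 3 libraries) at 7 dpf, with no overlap and a fall of 1.15 ± 0.18 (adjusted p = 0.0022). In siblings it was at 28.8, 27 and 27.8 FPKM and then at 42.2, 45.1 and 53.5 FPKM, a rise of 0.74 (adjusted p = 0.011). The difference of −1.89 had an adjusted p of 0.065. *c9* was named after its values were seen. *fetub*, an inhibitor of metalloproteases, was at 119, 156 and 130 FPKM in mutants at 5 dpf and at 85.1, 49.7 and 29 FPKM at 7 dpf. It fell by 1.42 ± 0.31 (adjusted p = 0.011, and 0.05 without 5 dpf replicate 2), while it rose by 1.32 in siblings.

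**Figure D4:**
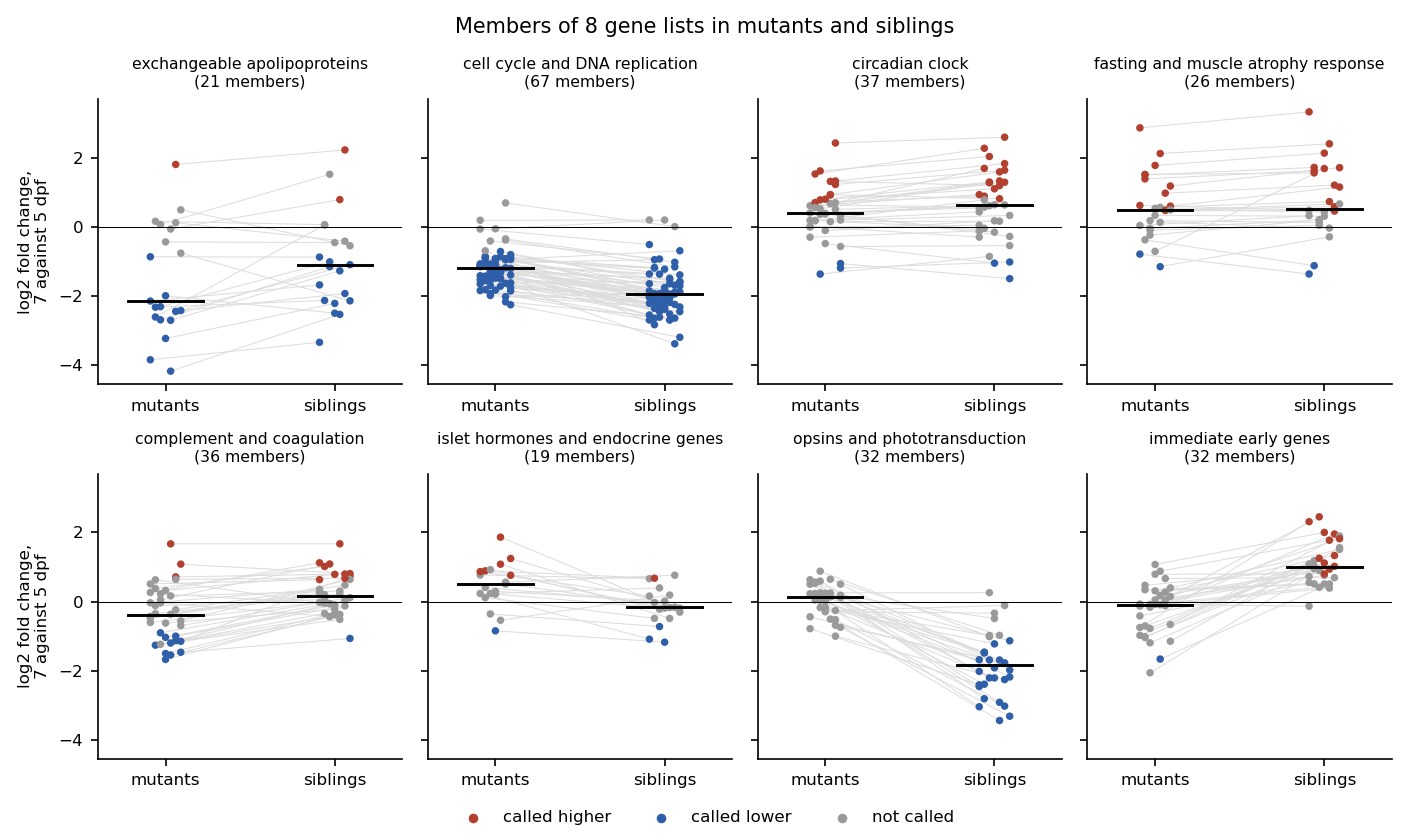
Log2 fold change from 5 to 7 dpf of every tested member of 8 gene lists in mutants (left in each panel) and siblings (right), with a thin line joining the values of a gene, a black bar for the median, red for called higher, blue for called lower and grey for not called. The apolipoprotein and cell cycle panels fall in both genotypes, the opsin panel is grey in mutants (0 of 32 called) and mostly blue in siblings (25 of 32), and the immediate early panel has 12 red points in siblings and 0 in mutants.

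Genes of the exocrine pancreas depended on the library. Of 30 digestive enzyme genes 6 rose and 0 fell (median 0.53; 8 and 0 in siblings, median 1.11). The 7 dpf medians were 2.0, 0.16 and 0.08 and the 5 dpf medians −0.68, 0.27 and 0.42, so replicate 1 was the lowest at 5 dpf and the highest at 7 dpf. *prss1*, trypsin, showed it plainly, with 59.4, 246 and 250 FPKM at 5 dpf and 745, 76.1 and 76.5 FPKM at 7 dpf (0.08 ± 0.78, adjusted p = 0.96). The ages overlapped widely, and the sibling libraries lay between 2272 and 9635 FPKM. The rises numbered 2 without 5 dpf replicate 2, 3 without 5 dpf replicate 1 and 3 without 7 dpf replicate 1. For 7 of the 30 genes all 7 dpf libraries lay above all 5 dpf libraries, against 15.5% of all tested genes. Among them *CELA1* (ENSDARG00000043175), an elastase, rose from low values, with 0.413, 1.01 and 0.861 FPKM and then 3.06, 5.25 and 5.77 FPKM (2.03 ± 0.34, adjusted p = 0.0029 by limma).

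Endocrine genes of gut and islet rose in part. Of 19 tested 6 rose and 1 fell (median 0.51), against 1 and 3 in siblings (median −0.17), and the rises numbered only 1 to 3 without any one mutant library. Of the 6, *ghrl* (ghrelin) was kept by the filter through 7 dpf alone and had to differ. *PYY* (chromosome 12, 10304435 to 10315039), a satiety peptide of gut endocrine cells, was the clearest. It was at 2.81, 3.04 and 2.23 FPKM at 5 dpf and at 12.7, 10 and 10.6 FPKM at 7 dpf, apart in every library (1.86 ± 0.32, adjusted p = 0.0036). In siblings it changed by −0.17 (adjusted p = 0.74). Insulin (*ins*) was at 1.06, 0.648 and 0.86 FPKM and then at 1.44, 1.87 and 2.12 FPKM (adjusted p = 0.55), and *SLC30A8*, the zinc carrier of insulin granules, fell by 0.85.

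Of 49 enterocyte genes 6 fell and 1 rose (median 0.07), with 0 rises with total reads or TPM and without 5 dpf replicate 1, 7 dpf replicate 1 or 7 dpf replicate 2. *FABP1* (ENSDARG00000059227), a fatty acid carrier, was at 50.4, 146 and 66.5 FPKM and then at 29.9, 22.8 and 15 FPKM, a fall of 1.84 ± 0.35 (adjusted p = 0.0061), with 2.11 in siblings. The other 3 with the largest falls in this list were apolipoproteins or *DGAT2*. The gut markers *FABP6* and *VIL1* overlapped between the ages (adjusted p = 0.88 and 0.9). Of 18 factors of endoderm identity 3 fell and 0 rose, among them *GATA6* (−0.64), and 1 fell without 5 dpf replicate 2.

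Inflammation genes rose only in part, and 7 dpf replicate 3 was the highest library for many. *SAA2* (ENSDARG00000045999, chromosome 7, 12950507 to 12956434), serum amyloid A of the acute phase, was at 1.41, 0 and 0.279 FPKM at 5 dpf and at 5.46, 6.35 and 39 FPKM at 7 dpf. The 7 dpf libraries were all higher, with replicate 3 far above the others (3.69 ± 0.69, adjusted p = 0.0055), and in siblings the change was 0.22 (adjusted p = 0.85). *SAA2* was named as one of the largest increases and is not on the list of inflammation genes that follows. Of these 27 genes 3 rose and 1 fell (median 0.42). In siblings 5 rose and 0 fell (median 0.57). In mutants the 7 dpf medians of the list were −0.35, 0.33 and 1.23. The 3 that rose in mutants were *hamp* (2.07), *tnfb* (1.23) and *il34* (0.54), with adjusted p of 0.035, 0.046 and 0.038 by limma. Each lost its call when any 1 mutant library of 5 dpf was left out. Without 7 dpf replicate 3 the list had 1 rise, without 7 dpf replicate 1 it had 6, without 7 dpf replicate 2 it had 2 and without each 5 dpf library it had 0. *il1b* was at 1.38, 3.17 and 1.62 FPKM and then at 0.967, 2.57 and 36.3 FPKM, so that replicate 3 alone stood high (adjusted p = 0.43). *MMP9* was also highest in that library, at 106 FPKM against 9.28 to 67 in the other mutant libraries, and did not pass (adjusted p = 0.96).

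Macrophage and antigen presentation genes were steadier. Of 25 neutrophil and macrophage markers 5 rose and 0 fell (median 0.27), with 4 or 5 rises without any one library. The change was above 0 for 17 and below 0 for 8 of them. In siblings 5 of these markers rose and 1 fell, with a median of 0.3. *MPEG1* (ENSDARG00000043093), a pore protein of macrophages, was at 7.1, 6.98 and 9.49 FPKM and then at 18.3, 34.9 and 44.5 FPKM (1.91 ± 0.36, adjusted p = 0.0058), and it changed by 0.76 in siblings (adjusted p = 0.14). *NCF1*, of the oxidase of phagocytes, rose by 1.42 and the scavenger receptor *marco* by 1.19. Of 17 interferon response genes 4 rose and 0 fell (median 0.48), and all 17 had a change above 0. More of them passed in siblings, where 8 rose and 0 fell (median 0.71). Of the 17, 1 (*PSMB8*, not among the 4) was kept through 7 dpf alone and had to differ. *b2m* and *b2ml*, beta-2 microglobulins, rose by 0.90 and 0.84 and *mhc1zba* of class I antigen presentation by 0.99, with 1.19, 1.14 and 1.14 in siblings. *mxc*, an antiviral protein, rose from 2.19, 1.7 and 1.27 FPKM to 5.32, 4.75 and 9.06 FPKM in mutants (adjusted p = 0.0042) and changed by 0.21 in siblings (adjusted p = 0.62).

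The red cell genes that passed the test all fell. Of 23 globin and erythroid genes 7 fell and 0 rose (median −0.38; 11 and 0 in siblings, median −0.72), with 4 falls without 5 dpf replicate 1. *hbae3*, an embryonic alpha globin, was at 299, 361 and 212 FPKM and then at 91.2, 86.8 and 77 FPKM (−1.74 ± 0.27, adjusted p = 0.0022), with no overlap. *tfr1a*, the transferrin receptor of erythroid cells, fell from 11.3, 9.18 and 9.8 FPKM to 1.85, 1.66 and 1.15 FPKM (−2.38 ± 0.21). Red cell carbonic anhydrase, *cahz*, fell by 1.53.

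The collagen genes that passed the test fell, while keratin and junction genes were split between rise and fall. Of 36 collagen genes 17 fell and 0 rose (median −0.61; 25 and 0 in siblings, median −1.0). The falls numbered 5 without 5 dpf replicate 2, 6 without 7 dpf replicate 1, 7 without 5 dpf replicate 3 and 8 without 7 dpf replicate 3, while 35 of the 36 had a change below 0. *col6a1* was at 55.4, 55.5 and 56.3 FPKM and then at 26.2, 33.8 and 22.6 FPKM (−1.02 ± 0.16, adjusted p = 0.0022), and the cartilage collagen *col9a3* fell by 1.18. Of 29 cartilage and bone genes 8 fell and 0 rose, and the link protein *hapln1a* fell by 1.46. The falls of that list numbered 3 to 5 without any one library other than 7 dpf replicate 3. Of 47 keratin and epithelial junction genes 7 rose and 0 fell (median −0.05), with 1 rise without 5 dpf replicate 2, 3 without 5 dpf replicate 1 and 4 without 7 dpf replicate 2. The change was above 0 for 23 and below 0 for 24 of the 47, and 5.93% of all tested genes rose.

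**Figure D5:**
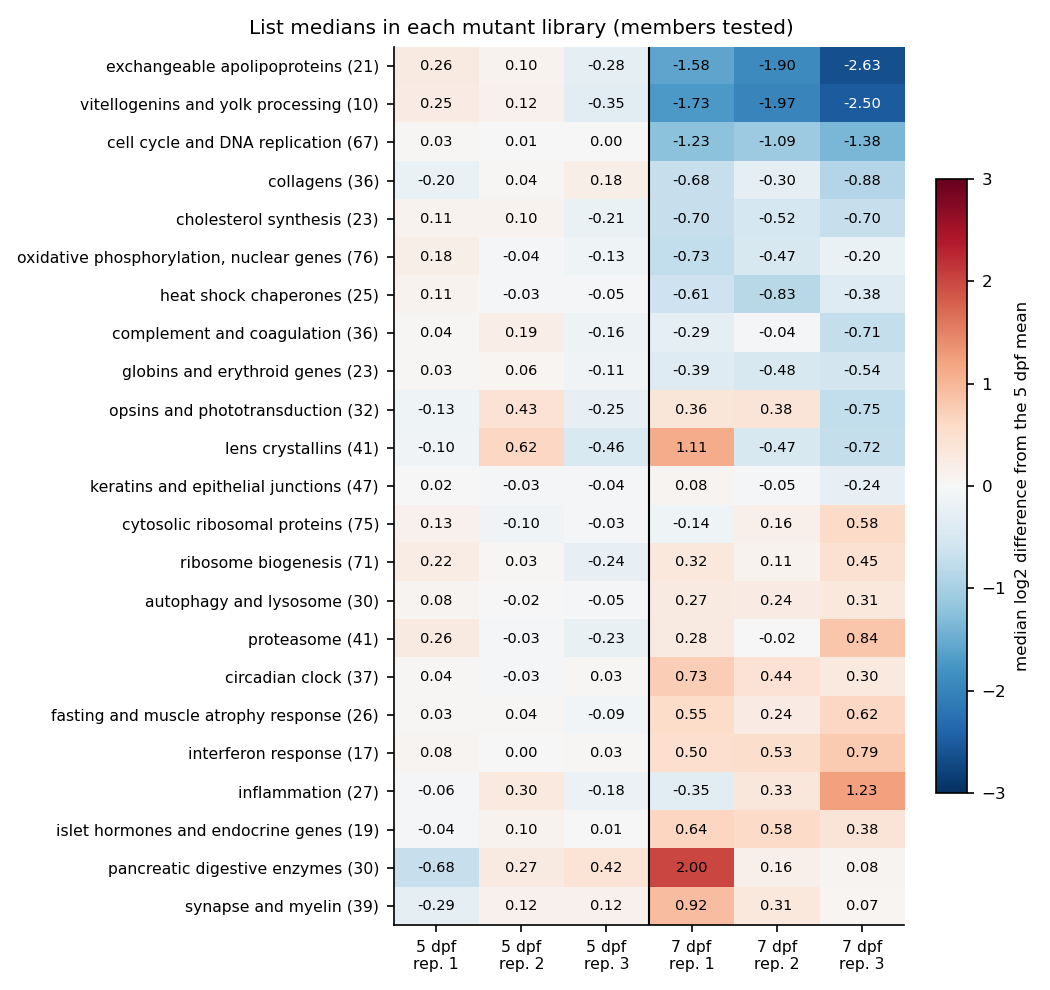
Median log2 difference from the 5 dpf mean over the tested members of 23 gene lists (rows, with the number of members) in each mutant library (columns), coloured from blue for lower to red for higher. The apolipoprotein, yolk and cell cycle rows are blue in all 3 libraries of 7 dpf, whereas digestive enzymes are high in 7 dpf replicate 1 (2.0) and inflammation genes in 7 dpf replicate 3 (1.23).

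Muscle genes moved in both directions, while 5.93% of all tested genes rose and 6.76% fell in the mutants. Of 72 sarcomere and contraction genes 12 fell and 7 rose (median −0.1; 10 and 18 in siblings, median 0.14), with 5 to 7 falls without any one library other than 7 dpf replicate 3, 3 rises without 5 dpf replicate 1 and 4 rises without 5 dpf replicate 3 or 7 dpf replicate 3. *atp2a1l*, a calcium pump of the sarcoplasmic reticulum, was at 514, 496 and 534 FPKM and then at 1234, 1205 and 2299 FPKM (1.55 ± 0.25, adjusted p = 0.0023). A pair of genes listed as *TTN*, titin, rose by 1.28 (ENSDARG00000000563) and 1.02 (ENSDARG00000028213). The calcium store protein *CASQ2* fell from 38.3, 38.4 and 36.3 FPKM to 10.4, 14.3 and 9.88 FPKM (−1.69 ± 0.24, adjusted p = 0.0015), and *ACTA1* (ENSDARG00000055618), skeletal actin, fell by 1.23 from 1111, 1085 and 1049 FPKM to 499, 454 and 429 FPKM. The other gene listed under that name (ENSDARG00000036371), looked up after the results were seen, lay between 170 and 275 FPKM over the mutant libraries of both ages. The troponins *TNNT3* (ENSDARG00000030270) and *tnnt2c* fell by 1.02 and 1.12.

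None of the opsin and phototransduction genes tested passed in the mutants. Of 56 listed, 32 reached the filter, and 0 passed in either direction (median 0.13), while 25 fell and 0 rose in siblings (median −1.85). At an unadjusted p under 0.05, 25 of the 32 differed in age change between the genotypes, against 10.4% of all tested genes. None of them passed after adjustment. The mutant libraries spread widely, with 7 dpf medians of 0.36, 0.38 and −0.75. *GNAT2*, cone transducin, was at 7.54, 17.3 and 6.61 FPKM at 5 dpf and at 32.1, 18.1 and 4.54 FPKM at 7 dpf, with full overlap (0.53 ± 0.63, adjusted p = 0.64). In siblings it was at 14.2, 22.7 and 36.7 FPKM and then at 2.44, 1.55 and 5.62 FPKM (−2.81, adjusted p = 0.0064). The red cone opsin *opn1lw2* changed by −0.74 in mutants (adjusted p = 0.3) and by −3.32 in siblings. These genes, *GNAT2* and *opn1lw2*, were named after their values were seen. Of 15 visual cycle genes 1 fell and 0 rose in mutants (2 and 0 falls with total reads and TPM), against 10 and 1 in siblings (median −1.19).

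Other genes of eye, pigment and nervous system changed singly. Of 41 lens crystallin genes 1 rose and 0 fell, and that was *CRYBB1*, at 0.637, 0.934 and 0.472 FPKM and then at 3.65, 2.88 and 4.28 FPKM (1.80 ± 0.31, adjusted p = 0.0038), with a change of −0.20 in siblings (adjusted p = 0.68). Without 7 dpf replicate 1, in which the list median was 1.11 against −0.47 and −0.72 in the other libraries of 7 dpf, 6 crystallin genes fell. Of 16 pigment genes 3 fell, and 6 with total reads and 5 with TPM. *gch2*, which makes the pteridine pigment of yellow cells, was at 96.7, 93.8 and 95.5 FPKM and then at 21.2, 31.9 and 20.7 FPKM (−1.96 ± 0.19, adjusted p = 0.0002), and it fell by 1.04 in siblings. *MITF* (ENSDARG00000003732), a regulator of pigment cells, fell by 0.91 and changed by −0.13 in siblings (adjusted p = 0.65). Of 39 synapse and myelin genes 2 rose and 0 fell (median 0.39; 0 and 3 in siblings), with 0 rises without 5 dpf replicate 1 and 1 without 5 dpf replicate 2, 5 dpf replicate 3, 7 dpf replicate 1 or 7 dpf replicate 3, and 1 with total reads or TPM.

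Stress genes did not rise together. Of 25 heat shock chaperones 8 fell and 1 rose (median −0.5), with 15 falls with total reads, 2 or 3 falls without 5 dpf replicate 1, 5 dpf replicate 2, 7 dpf replicate 1 or 7 dpf replicate 2, and 5 without 5 dpf replicate 3. *SERPINH1*, a collagen chaperone, was at 9.16, 15 and 17.9 FPKM and then at 5.52, 4.09 and 4.3 FPKM (−1.46 ± 0.23, adjusted p = 0.0025). Of 30 genes of the endoplasmic reticulum and integrated stress responses 7 fell and 3 rose (median −0.32). *calr3b*, a chaperone of the endoplasmic reticulum, fell by 1.11, and *eif4ebp3*, a brake on translation, was at 28.7 ± 2.13 FPKM (SD over 3 libraries) and then at 113, 89.9 and 117 FPKM (1.87 ± 0.17, adjusted p = 0.0002). The falls of that list numbered 3 without 5 dpf replicate 1, 4 without 5 dpf replicate 2 and 4 without 7 dpf replicate 1. Of 17 redox genes of the Nrf2 response 3 fell and 2 rose, with 1 rise without any one library, 1 rise with total reads or TPM and 5 falls with total reads, and *gstp1.1*, a glutathione transferase, fell by 1.91.

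*SESN1*, which restrains growth signalling under stress, was at 32.2, 32.7 and 37.4 FPKM at 5 dpf and at 92.4, 100 and 110 FPKM at 7 dpf, apart in every library (1.55 ± 0.16, adjusted p = 0.00023). *bbc3* (Puma), which promotes apoptosis, rose by 1.41. Both rose in siblings, by 1.61 and 1.26. Both were named because they passed, from a list that is otherwise not reported here, and they stand for no group.

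Of 32 immediate early genes, which respond within minutes to stimulation, 1 fell and 0 rose in mutants (median −0.09), while 12 rose and 0 fell in siblings (median 0.99). At an unadjusted p under 0.05, 15 of the 32 differed in their age change, against 10.4% of all tested genes, and none passed after adjustment. The 5 dpf mutant libraries already spread on this list, with medians of −0.48, −0.15 and 0.55. Of 39 genes of xenobiotic metabolism 5 rose and 4 fell (median 0.11), with 3 rises without 5 dpf replicate 1 or 7 dpf replicate 1, 2 falls without each 5 dpf library, and 3 rises with total reads or TPM. *CYP24A1*, which inactivates vitamin D, was at 12.2, 12.5 and 12.6 FPKM and then at 49.9, 33.8 and 57.1 FPKM (1.84 ± 0.40, adjusted p = 0.011), and it rose by 3.05 in siblings. *UGT1A1*, which conjugates bilirubin, fell by 1.01.

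The remaining lists held between 0 and 8 calls in a direction, while 5.93% of all tested genes rose and 6.76% fell. Of 58 mitochondrial ribosomal protein genes 8 fell and 1 rose (median −0.18), with 1 fall without 5 dpf replicate 1, 3 without 5 dpf replicate 2 and 4 without 7 dpf replicate 2 or 7 dpf replicate 3. Of 24 fatty acid synthesis genes 4 rose, 1 of them kept through 7 dpf alone, and 2 fell, with 1 fall without any one library other than 5 dpf replicate 3 or 7 dpf replicate 2. Of 16 bile acid genes 1 rose and 3 fell, with 0 rises without 5 dpf replicate 1, 5 dpf replicate 2 or 7 dpf replicate 2. Of 31 matrix proteases and inhibitors 2 rose and 3 fell, with 1 fall without 5 dpf replicate 3, 7 dpf replicate 1 or 7 dpf replicate 3, 1 rise without any one library other than 5 dpf replicate 3, and 1 rise with total reads or TPM. Of 27 genes of the thyroid, stress axis and appetite 1 rose and 2 fell, with 0 rises without 5 dpf replicate 2 and 2 without 5 dpf replicate 1 or 7 dpf replicate 3. Of 22 ionocyte genes 2 rose and 0 fell, with 0 rises without 5 dpf replicate 1 or 7 dpf replicate 1 and with total reads or TPM, and 1 without each other library. Of 11 swim bladder genes 1 rose and 0 fell, with 0 rises without 5 dpf replicate 1, 5 dpf replicate 2 or 7 dpf replicate 2 and with total reads or TPM, 2 falls without 5 dpf replicate 3 and 1 fall with total reads or TPM. In each of 3 lists, the 9 thymus and T cell genes, the 13 blood stem cell regulators and the 18 neurotransmitter receptor subunits, 1 gene fell and 0 rose. The first and second of these had 0 falls without 5 dpf replicate 2 or 7 dpf replicate 1, and the gene of the third was kept through 5 dpf alone. Of 2 pituitary hormone genes 0 passed.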

How the data were processed

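RNA of pooled whole larvae was sequenced in 3 libraries per genotype and age. A company sequenced the libraries and aligned the reads to GRCz11 for the authors (the submitters' processing notes name HISAT2 2.0.5), who deposited normalized read numbers as FPKM. The sources used here do not give the counter, its handling of shared reads and strand, or the annotation release, so genes of near-identical copies are uncertain and are given by identifier. Steps between low FPKM values gave back whole reads (100.0% of values whole within 0.01 below 10000 reads), and voom on these called 1330 genes higher and 1554 lower in mutants.

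Genes that reached 0.5 FPKM in 3 or more of the 6 mutant libraries were fitted as log2(FPKM + 0.5) by limma 3.58.1 in R 4.3.3, in 1 model of the 4 groups over 12 libraries with 8 residual degrees of freedom and a variance trend. Benjamini-Hochberg adjustment ran over every gene in the fit, with calls made under an adjusted p of 0.05. A permutation test of 3 against 3 libraries cannot go below a p of 0.10. Of the tested genes, 18156 reached 0.5 FPKM in all 6 mutant libraries. A further 154 passed the filter through 5 dpf alone and 158 through 7 dpf alone, of which 75 were called lower and 56 higher, and which had to differ to be kept.

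The members and the 52 gene lists were chosen with earlier results of these data known. Listed symbols numbered 1921, of which 702 matched by symbol, 1061 by the family name in the table of gene names (printed in capitals), 22 by synonym and 136 not at all. Named genes were *ercc2*, the 12 largest increases and decreases among called genes with a mean of at least 5 FPKM, a symbol other than a clone name and no overlap of the ages, at most 4 called genes for each list and direction, and genes that the study names. The text marks other genes, which were picked with their values in view. Alternatives were other pseudocounts, filters, scalings, library weights, replicate blocks, mutant libraries alone, genes with a symbol, voom and leaving out libraries. The fit was tested on simulated data. Promoter motifs and sequences are not analysed here, and results for some genes and 1 list are not reported here.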

Additional observations from a re-analysis of the deposited data

How the results depend on the processing

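Of 111 named genes that were followed, 98 kept their call and direction under each of up to 27 alternatives, and none of the 111 reversed. Many genes that met the naming rule but had less stable calls were left out of the text. The share therefore describes the 111 alone. *ghrl*, *BMAL1* and *FBP2* are named but are not among them, and lost their call in 11 of 25, 6 of 26 and 2 of 26 alternatives. The inflammation genes *hamp*, *il34* and *tnfb* are not among the 111 either, and lost their call in 6, 13 and 17 of 26. In mutant libraries alone with a replicate block, 12 of the 111 lost the call. Of the 111, *PCK1* and *fetub* lost a call without a mutant library, as given beside them. Counts of genes depended more on the libraries. With library weights 1987 genes rose and 2326 fell in the mutants, and 4 and 6 differed from siblings. Mutant libraries alone with a replicate block gave 475 and 537. Without any one library, mutant rises ranged from 670 to 1491 and falls from 711 to 1648, sibling rises from 1961 to 2974 and falls from 2266 to 3135, and genes with a difference from 0 to 18 (higher) and from 0 to 7 (lower), both highest without mutant 7 dpf replicate 3. A difference was also called for 1 higher and 2 lower without a filter, 2 and 2 among genes with a symbol, and 1 higher with the replicate block. Scaling to total reads left 1811 sibling rises. Every other setting kept the counts over all genes within 1.5 times their main value. The deposited scaling equals the median of ratios (factor 1.0116 in every library), so that alternative tests nothing.

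Replicate numbers did not pair the ages in the mutants. Deviations of mutant libraries with the same number correlated at −0.071, 0.035 and −0.056, against −0.083 to 0.13 for other numbers. In siblings the same numbers correlated at 0.117, 0.035 and 0.104 between the ages, against −0.098 to 0.002 for other numbers. What a number shares between the sibling ages was not tested. The replicate block over all libraries gave 1309 rises and 1536 falls in the mutants. Mutant and sibling libraries of the same number correlated at 0.291, 0.132 and 0.229 at 5 dpf and 0.064, 0.088 and −0.022 at 7 dpf, and a block within each age called 0 differences.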
